A study of Mus musculus with 6 samples.

Results

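The 10 genes described here encode the common structural proteins of basement membranes, including those of blood vessels: the collagen IV chains Col4a1 and Col4a2, the nidogens Nid1 and Nid2, the proteoglycans Hspg2 (perlecan) and Agrn (agrin), and the laminin chains Lama4, Lama5, Lamb2 and Lamc1. They were chosen by gene symbol, and every probe annotated with one of these symbols was taken: 17 probes of the 45281 on the array, or 10 of 19043 named genes. The samples were tumours of 4T1 cells (a mammary carcinoma line from a BALB/c mouse) carrying a stable lentiviral insertion. There were 3 tumours from cells with the empty lentiviral vector and 3 from cells labelled as overexpressing mouse uPA (urokinase-type plasminogen activator), a protease that turns plasminogen into plasmin. All were grown in the fifth mammary fat pad of female BALB/c mice aged 8 to 10 weeks and taken on day 7, and RNA of each was read on an Illumina mouse expression BeadChip. Arrays of the second group are called uPA-labelled below. Neither the promoter of the transgene nor whether the transduced cells were a clone or a pool is stated in the labels. The labels also do not say that each tumour came from its own mouse, so the p-values cover only how far these samples vary, in part perhaps for technical reasons.

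A basement membrane is a thin sheet of matrix beneath epithelia and endothelium and around muscle fibres, fat cells and Schwann cells. Laminins, each a trimer of an alpha, a beta and a gamma chain, assemble on the cell surface, collagen IV forms a second, cross-linked network, and nidogens and heparan sulphate proteoglycans join them. In carcinomas it surrounds the vessels and borders the tumour nests, and plasmin and matrix metalloproteinases can cut several of its components.

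The proteoglycan pair is shown first by sequence, because Agrn was the only member gene that passed the test and Hspg2 is the other proteoglycan of the set. The lines give the bases upstream of every RefSeq start of each gene, 5′ to 3′ on the gene's own strand (GRCm38.p6, sequences from RefSeq), with capitals marking each GGGCGG on either strand, the GC box bound by Sp1-type factors.
Agrn, chr4:156197534-156197738, minus strand: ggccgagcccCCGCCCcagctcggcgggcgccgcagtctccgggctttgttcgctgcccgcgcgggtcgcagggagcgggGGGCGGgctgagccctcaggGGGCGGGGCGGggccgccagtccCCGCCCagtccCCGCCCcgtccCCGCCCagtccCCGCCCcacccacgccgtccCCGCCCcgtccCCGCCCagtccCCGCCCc
Hspg2, chr4:137468553-137468750, plus strand: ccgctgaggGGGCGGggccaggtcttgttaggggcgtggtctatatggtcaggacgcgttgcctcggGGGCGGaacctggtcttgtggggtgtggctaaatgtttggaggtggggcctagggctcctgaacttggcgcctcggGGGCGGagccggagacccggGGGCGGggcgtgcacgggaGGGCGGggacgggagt
The 205 bases of Agrn held 11 GC boxes, some of them overlapping, and were 84.4% G or C. The 198 bases of Hspg2 held 5 and were 70.2% G or C. RefSeq promoter windows, from 250 bases before to 50 after a start, were matched for 7 of the 10 members (8 windows, of which 2 belong to Agrn). A GC box lay in 7 of these 8 windows, against 35.7% of all 32851 windows. The hypoxia response core, ACGTG or GCGTG on either strand, lay in 4 of the 8, against 43.8% of all windows. The TATAAA box lay in 0 of the 8, against 13.6%. Col4a1 and Col4a2 are read head to head from neighbouring starts, and the starts used for their windows place the first 22 bases of each on the same stretch of chromosome 8. Their windows overlap in part, so the 8 windows are not all separate stretches and a match in the shared part can count in both. These matches describe letters only and say nothing of which factor acts there.

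Agrn fell in the tumours labelled uPA overexpression, 7 other members lay below 0 without passing the test, and 2 lay above 0. Of the 10 genes 8 lay below 0, against 50.5% of the 10842 genes tested. Of the 10, 1 was called lower (limma, adjusted p under 0.05), against 3.1% of all genes, and 0 were called higher, against 2.31%, or 5.4% called in either direction. The median difference, labelled uPA overexpression minus empty vector, was -0.14 on the log2 scale for the 10 members and -0.00 for all genes tested. The groups did not overlap for 5 members, Col4a1, Col4a2, Nid1, Hspg2 and Agrn, each of them lower, where 15.5% of all genes were lower without overlap. With p-values adjusted over the 20434 probes tested instead of over genes, 0 of the 13 tested member probes passed, against 3.57% of all probes. When a 1.5-fold change and an unadjusted p below 0.05 were asked for, as in the study's design text, 0 members were called, against 4.36% of genes lower and 3.16% higher. By unadjusted p under 0.05 alone 2 members were lower, Agrn and Nid1, against 11.4% of all genes.

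**Figure D1:**
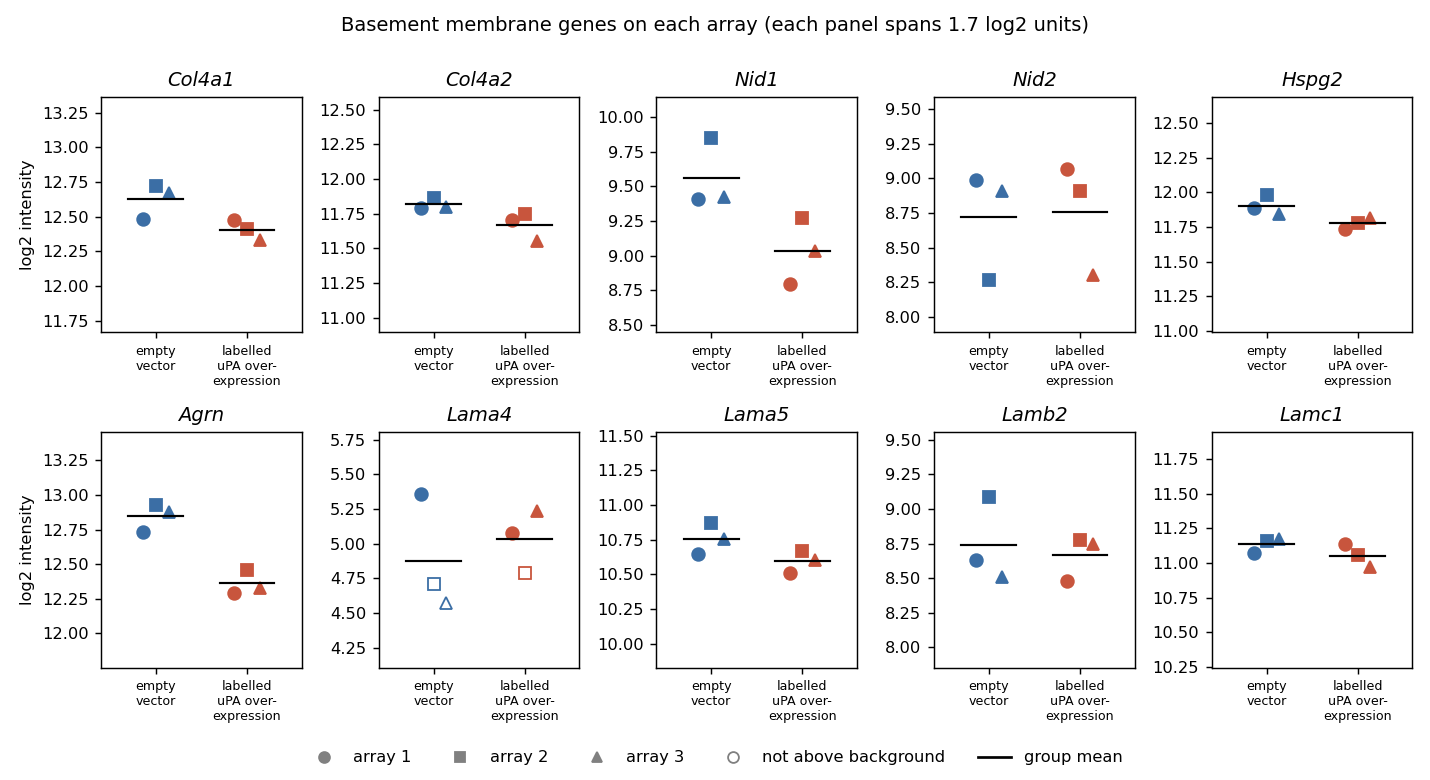
Log2 intensity of the brightest probe of each of the 10 genes on each array (circle, square and triangle for arrays 1, 2 and 3, open where the probe was not above background) and the mean of each group of 3 (line). The points of Agrn and Nid1 stand apart between groups, those of Nid2, Lama4, Lama5, Lamb2 and Lamc1 overlap, and Lama4 is open on 3 of 6 arrays.

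Plau, which encodes uPA, was itself lower in the tumours labelled uPA overexpression. Its mean log2 intensity was 12.94 ± 0.23 (SD, n = 3) with the empty vector and 12.14 ± 0.18 (SD, n = 3) in the other group, and it fell by 0.80 (SE 0.15, limma, adjusted p = 0.0326), against its label. This call ended without any 1 of the 6 arrays (adjusted p from 0.0518 to 0.108). The position of this probe was not analysed here, nor whether it detects the transgene, and every direction is that of the labels. Between 43.6% and 46.1% of probes were detected per array, and the mean raw intensity ran from 415.7 to 460.8. Empty vector 2 stood furthest from its group, with an array weight of 0.30 where the other arrays had 0.80 to 1.80.

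The collagen IV genes, whose chains form the most common collagen IV protomer, lay slightly lower as a pair. Col4a1 read 12.49, 12.72 and 12.67 in log2 intensity on empty vector 1, 2 and 3, and 12.47, 12.41 and 12.33 on uPA-labelled arrays 1, 2 and 3. All 3 empty vector values were above the others, but empty vector 1 and uPA-labelled array 1 were almost level. The difference was -0.22 (SE 0.11, 95% interval -0.48 to 0.03, limma, adjusted p = 0.296) and did not pass. Col4a2 read 11.79, 11.86 and 11.80 on the empty vector arrays and 11.70, 11.75 and 11.55 on the others, again without overlap. Its difference was -0.15 (SE 0.10, 95% interval -0.39 to 0.09, limma, adjusted p = 0.442). Both genes were lowest on uPA-labelled array 3 and highest on empty vector 2. Both intervals lay within a fold of 1.5 either way, so changes beyond that size are outside them.

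The nidogens bind laminin and collagen IV and link the networks, and neither passed the test. Their difference from each other was not tested, and their 95% intervals overlapped. Nid1 read 9.41, 9.85 and 9.43 in log2 intensity on the empty vector arrays and 8.80, 9.27 and 9.03 on the others. Empty vector 2 was highest and the groups did not overlap. With a difference of -0.53 (SE 0.17, 95% interval -0.93 to -0.13), Nid1 had an unadjusted p of 0.0168 by limma and did not pass after adjustment (adjusted p = 0.137). The dimmer Nid1 probe read 6.46, 7.17 and 6.35 against 6.21, 6.35 and 6.33, and there the groups overlapped narrowly. Without empty vector 2 and uPA-labelled array 1 the brighter probe differed by -0.27. On all 6 arrays the dimmer one differed by -0.36 (SE 0.21), and its highest array was again empty vector 2. Nid2 read 8.98, 8.26 and 8.91 on the empty vector arrays and 9.06, 8.91 and 8.30 on the others. One array in each group, empty vector 2 and uPA-labelled array 3, lay about as far below the rest, and the group means of 8.72 and 8.76 were almost equal. The Nid2 difference was 0.04 (SE 0.26, 95% interval -0.56 to 0.64, limma, adjusted p = 0.942), and its sign turned without empty vector 2 (-0.19) and without uPA-labelled array 1 (-0.11) or 2 (-0.03).

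Agrin, the heparan sulphate proteoglycan known for gathering acetylcholine receptors at the neuromuscular junction and also a part of epithelial and vascular basement membranes, gave the only call. Agrn read 12.73, 12.93 and 12.87 in log2 intensity on the empty vector arrays and 12.30, 12.46 and 12.33 on those labelled uPA overexpression. Every empty vector array was above every other array, and the same held in the raw intensities, 7418, 7439 and 7217 against 4842, 5628 and 5547. Agrn fell by 0.49 (SE 0.11, 95% interval -0.73 to -0.24), which is 1.40-fold lower, with adjusted p = 0.0467 over genes and 0.0558 over probes by limma. The call ended without any 1 of the 6 arrays, with adjusted p of 0.0964, 0.0674 and 0.143 without empty vector 1, 2 and 3 and of 0.147, 0.0894 and 0.150 without uPA-labelled arrays 1, 2 and 3. The difference then stayed between -0.54 and -0.44. In whole tumours fewer cells of a type and less RNA per cell cannot be told apart. Of 11 measured epithelial markers 7 fell in the same tumours, against 3.1% of all genes. Omitting empty vector 1 or uPA-labelled array 1 left 0 of these calls, omitting empty vector 3 left 3, and omitting uPA-labelled array 3 left 2. Their mean level was 10.43 to 10.62 in log2 intensity on the empty vector arrays and 9.55 to 9.84 on the others, while the Epcam and Ovol1 probes were not above background on any array. The part of these markers in the Agrn value was not tested.

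Perlecan (Hspg2), a large proteoglycan of nearly all basement membranes that stores growth factors on its heparan sulphate chains, was read by a pair of probes that gave similar values. The brighter Hspg2 probe read 11.89, 11.98 and 11.84 on the empty vector arrays and 11.74, 11.78 and 11.82 on the others, so that the groups were apart by a narrow margin. The difference was -0.12 (SE 0.10, 95% interval -0.35 to 0.10, limma, adjusted p = 0.512). The other probe read 11.56, 11.80 and 11.54 against 11.48, 11.40 and 11.59, with overlap, and differed by -0.14 (SE 0.12). Hspg2 had the smallest pooled SD of the members, 0.06, and Nid2 the largest, 0.40. The interval of Hspg2 excludes a change of 1.5-fold in either direction, and that of Agrn does not.

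**Figure D2:**
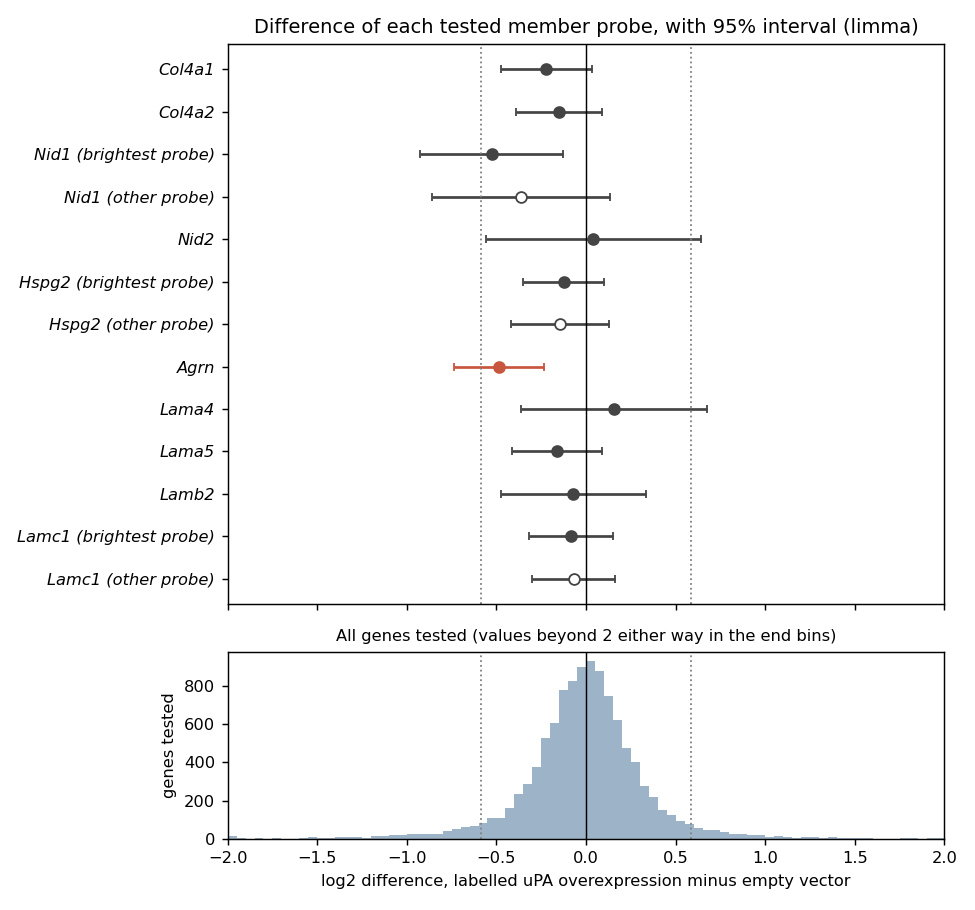
The upper panel gives the log2 difference (labelled uPA overexpression minus empty vector) of the 13 tested member probes with 95% intervals from limma, filled for the brightest probe of a gene and coloured for Agrn, the only called gene, and dotted lines mark a fold of 1.5. The lower panel counts the differences of the 10842 genes tested, and shows that the members lie within the bulk of them, mostly left of 0.

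Of the laminin alpha chains, which carry the binding sites for cell receptors, Lama5 was well detected and Lama4 barely so. Lama4 encodes the alpha chain typical of endothelial basement membranes. Its brightest probe read 5.36, 4.71 and 4.57 in log2 intensity on the empty vector arrays and 5.08, 4.79 and 5.23 on the others. It was above background on 1 empty vector array and on 2 of the others, and the other 4 Lama4 probes were not well above background on any array. The difference of 0.16 (SE 0.22, 95% interval -0.37 to 0.68, limma, adjusted p = 0.735) was thus between values at or near background, and ranged from 0.00 to 0.40 when single arrays were left out. Lama5, the alpha chain shared by epithelial and vessel basement membranes, read 10.65, 10.87 and 10.75 on the empty vector arrays and 10.51, 10.67 and 10.61 on the others. The groups overlapped, with empty vector 1 below uPA-labelled array 2, and the difference was -0.16 (SE 0.11, 95% interval -0.42 to 0.09, limma, adjusted p = 0.436).

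The beta and gamma chains did not differ beyond their spread. Lamb2, a beta chain of vessels, kidney glomeruli and the neuromuscular junction, read 8.63, 9.08 and 8.51 on the empty vector arrays and 8.48, 8.78 and 8.75 on the others. Its difference of -0.07 (SE 0.17, 95% interval -0.48 to 0.33, limma, adjusted p = 0.854) changed sign when empty vector 2, the highest array, was left out. Without that array it was 0.10, and without uPA-labelled array 1 it was 0.02. Lamc1, the gamma chain of most laminins, read 11.07, 11.16 and 11.18 on the empty vector arrays and 11.14, 11.06 and 10.97 on the others. The groups overlapped, and its difference of -0.08 (SE 0.10, 95% interval -0.32 to 0.15, limma, adjusted p = 0.687) was matched by the other Lamc1 probe at -0.07. Over all members, the 95% intervals of 6 genes (Col4a1, Col4a2, Hspg2, Lama5, Lamb2 and Lamc1) lay within a fold of 1.5 either way, as did those of 64.2% of all genes tested. In simulated data of the same size, a change of 1.5-fold was called for 43.6% of genes and one of 2-fold for 90.9%. The simulated noise was normal and independent between genes, with no deviating array, so these rates need not hold for the real arrays.

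Across single arrays, empty vector 2 had the highest value for 7 of the 10 members and uPA-labelled array 1 the lowest for 5. Empty vector 2 and uPA-labelled array 3, the low arrays for Nid2, also had the highest levels of adipocyte markers and of fibroblast markers. The mean fibroblast level was 9.99 and 9.81 in log2 intensity on these arrays and 9.25 to 9.60 on the other 4. Over the 6 measured genes of 12 listed, the mean adipocyte level was 7.78 and 7.17 in log2 intensity on these arrays and 5.47 to 6.61 on the other 4. By group it ran from 5.47 to 7.78 and from 5.94 to 7.17, and the probes of Fabp4, Plin1, Cd36 and Retn were not above background on any array. Adiponectin (Adipoq) read 7.40, 8.49 and 5.44 on the empty vector arrays and 6.42, 6.67 and 7.89 on the others. Skeletal muscle markers, 8 measured of 12 listed, were high on empty vector 3 (7.99) and on uPA-labelled array 3 (9.57) and ran from 6.13 to 6.86 on the other 4 arrays. By group they ran from 6.13 to 7.99 and from 6.49 to 9.57, with a median difference of 0.73. Of the 8 genes 0 lay below 0, against 50.5% of all genes, and 0 were called. With a replicate block 1 was called higher, where 30 of the 10842 genes tested were. Fat cells and muscle fibres both carry basement membranes. The part of fat cells, muscle fibres or fibroblasts in the Nid2, Nid1 and Lamb2 values was not tested.

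**Figure D3:**
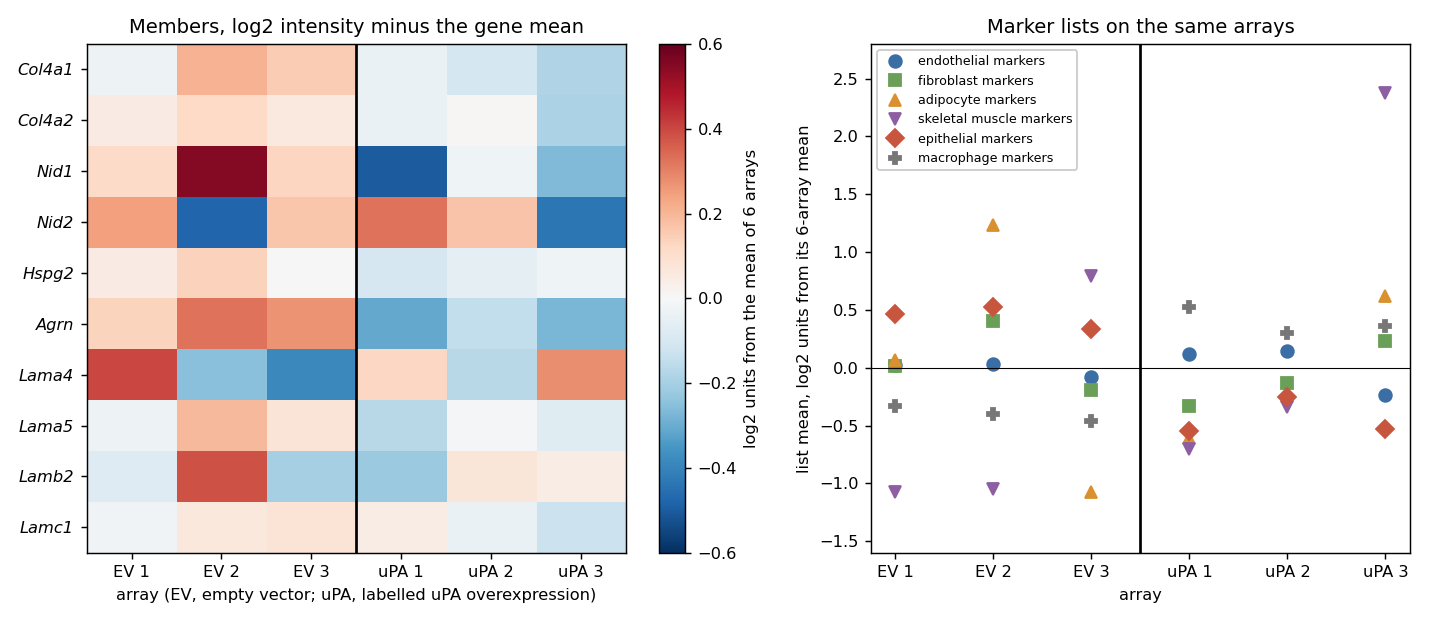
Left, log2 intensity of each member on each array minus that gene's mean over the 6 arrays (colour scale in log2 units). Right, the mean log2 level of 6 marker lists on the same arrays, each minus its own mean. Nid2 is lowest on empty vector 2 and uPA-labelled array 3, where the adipocyte and fibroblast lists are both highest. Agrn is lower on all 3 arrays of the second group.

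Of 21 endothelial genes 18 were measured, with a median difference of 0.03, and 0 were called in either direction by limma. Of the 18, 4 had an unadjusted p under 0.05 (against 21.3% of all genes), with Flt1 at -0.41 and Sox18, Egfl7 and Tek at 0.42, 0.41 and 0.26. Another Flt1 probe, detected on 2 arrays of each group, differed the other way, by 0.19 (SE 0.16). Another Egfl7 probe differed by 0.47. The mean level of the 18 genes was 8.84 to 8.96 in log2 intensity on the empty vector arrays and 8.69 to 9.08 on the others. The Ecscr and Erg probes were not above background on any array. The junction genes Pecam1 and Cdh5 were above background on all 6 arrays and differed by -0.36 (SE 0.19, limma, adjusted p = 0.340) and -0.07 (SE 0.21, limma, adjusted p = 0.876). Dimmer Pecam1 probes differed by -0.48 (SE 0.18, limma, unadjusted p = 0.0301, adjusted p = 0.203 over probes) and by -0.31 (SE 0.19). The Cdh5 difference became 0.08 without empty vector 2 and without uPA-labelled array 3. Among 12 measured pericyte and mural cell markers, with a median of -0.12, 1 fell, against 3.1% of all genes. It was the receptor gene Pdgfrb, which fell by 0.80 (SE 0.13, limma, adjusted p = 0.0225). That call ended without any 1 array other than empty vector 2 (adjusted p up to 0.0842). Acta2, Notch3, Anpep and Cspg4 were lower too by unadjusted p under 0.05 alone (limma, -0.79, -0.89, -0.48 and -0.34). Higd1b was higher by that measure (0.54), which 21.3% of all genes met in either direction. Array weights called 3 of the 12 lower and 1 higher, and the replicate block called 0. Mean mural levels ran from 7.41 to 7.64 and from 7.24 to 7.46, and the pericyte gene Rgs5 differed by 0.35 (SE 0.20, limma, adjusted p = 0.373). All 12 fibroblast markers were measured, with a median of -0.30 and 0 called, and mean levels of 9.38 to 9.99 and 9.25 to 9.81. Of the 12, 7 lay below 0, and Thy1 narrowly missed the threshold (-0.56, SE 0.13, limma, adjusted p = 0.0502). Alternatives that called 1 fibroblast marker lower included no background correction, offset 50, the deposited values, array weights and a trended prior. The replicate block and the omission of any single array called 0. Of 13 macrophage markers 9 rose, against 2.31% of all genes, with mean levels of 9.94 to 10.07 and 10.70 to 10.92. Omitting empty vector 1 left 1 call, omitting empty vector 3 left 2, omitting uPA-labelled array 1 left 0 and omitting uPA-labelled array 3 left 4. Of 4 measured Schwann cell markers, with mean levels of 7.95 to 8.05 and 7.54 to 7.67, 1 fell, against 3.1% of all genes. It was Ncam1, by 1.10 (lost without empty vector 1 or uPA-labelled array 1, adjusted p up to 0.0523 by limma), but another Ncam1 probe differed by -0.28 and did not pass. The probes of Erbb3, Gfra3 and S100b were not above background on any array. The part of any of these cell types in the values of the 10 members was not tested.

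Other chains of the same families were measured beside the members. Of 7 measured genes of 13 listed for other network collagens and laminins, 2 fell and 0 rose, with a median of -0.57. Of all genes 3.1% were called lower and 2.31% higher. Omitting empty vector 1, empty vector 3 or uPA-labelled array 3 left 0 of the 2 calls. Col4a5, a collagen IV chain of restricted tissue distribution, had a mean log2 intensity of 7.76 ± 0.08 (SD, n = 3) with the empty vector and of 7.16 ± 0.10 (SD, n = 3) in the uPA-labelled tumours, and fell by 0.59 (SE 0.10, limma, adjusted p = 0.0258). Its other probe differed by -0.57 (limma, adjusted p = 0.0630 over probes), and the call was lost without any 1 array other than empty vector 2 (adjusted p up to 0.0960). Lamb3, the beta chain of the laminin that anchors epithelia, fell by 2.03 (SE 0.31, limma, adjusted p = 0.0181), a call lost on omitting empty vector 1, empty vector 3 or uPA-labelled array 3 (adjusted p up to 0.0671). Col18a1, whose cleaved end is endostatin, differed by 0.35 (SE 0.13, limma, adjusted p = 0.178). Another Col18a1 probe was called, at 0.80 (limma, adjusted p = 0.0424 over probes), and the mean of its probes too (0.49, adjusted p = 0.0385). The probes of Col4a3 and Col4a6 were not above background on any array.

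Genes that build, bind or cut the basement membrane were read against the 3.1% of all genes called lower. In the main fit 1 gene was called in 4 of the 5 lists, or 5.88% to 8.33% of those measured, which is near that background. The fifth list, of proteases, had 4 of 12. These counts moved with the settings. With array weights 3 of 16 genes for collagen IV folding and 3 of 17 receptors were called lower, where 568 of the 10842 genes tested were. The folding list also had 3 with a trended prior and with the mean of all probes. Among 12 measured associated glycoproteins 1 fell, Fbln2, a fibulin that binds laminin and nidogen, by 0.71 (SE 0.12, limma, adjusted p = 0.0214), and 0 rose, with a median of -0.09. Among 17 measured receptors 1 gene fell. Itga2, an integrin subunit that binds collagen and laminin, fell by 1.38 (SE 0.17, limma, adjusted p = 0.0134), with a median of -0.19. The agrin receptor gene Lrp4 differed by -0.53 (SE 0.15, limma, adjusted p = 0.0901), and Musk, its partner at the neuromuscular junction, was not above background on any array. Of 16 measured genes for folding, secretion and cross-linking of collagen IV 1 fell, the prolyl hydroxylase gene P4ha2, by 1.14 (SE 0.12, limma, adjusted p = 0.0120), with a median of -0.18. Plod2, of the same list, differed by -0.62 (SE 0.17, limma, adjusted p = 0.0843). Its other probe was called, at -0.75 (limma, adjusted p = 0.0349 over probes). Of 17 measured genes of heparan sulphate synthesis and editing, which act on the chains of perlecan and agrin, 1 gene fell. Hs6st2, a sulphotransferase, fell by 1.92 (SE 0.23, limma, adjusted p = 0.0134), with a median of -0.08. Its relative Hs6st1 differed by -0.54 (SE 0.13, limma, adjusted p = 0.0655), and was called without background correction, with offset 50, on the deposited values, with array weights and with a trended prior (adjusted p from 0.0293 to 0.0382). Of 12 measured proteases that can cut basement membrane 4 fell and 0 rose, Prss12, Mmp3, Mmp9 and Plau, with a median of -0.17. Prss12, which encodes neurotrypsin, the protease that cleaves agrin, fell by 2.05 (SE 0.28, limma, adjusted p = 0.0148), from 7.55 ± 0.22 (SD, n = 3) to 5.50 ± 0.59 (SD, n = 3) in log2 intensity. The lower values lay near background (the lowest detected level was 4.91 to 4.97 on these arrays), and the other Prss12 probe was detected on 1 of the 3. The size depended on the background step: the difference was -1.22 on the deposited values, -1.26 without background correction and -1.47 with offset 50, and it was called under each. Each of the gene calls of the main fit was lost without at least 1 single array, with adjusted p up to 0.0810 for Fbln2, 0.0566 for Itga2, 0.0563 for Hs6st2, 0.0618 for Prss12, 0.0813 for Mmp3 and 0.122 for Mmp9. They were lost without empty vector 1 for all 7 of these genes beside Plau (adjusted p for P4ha2, which was lost there only, 0.0500), and without empty vector 3 or uPA-labelled array 1 or 3 for some of them. Mmp9 was also lost without empty vector 2, without the filter on dim probes (adjusted p = 0.0684) and with a trended prior (adjusted p = 0.0719), and Itga2 was -0.89 on the deposited values.

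**Figure D4:**
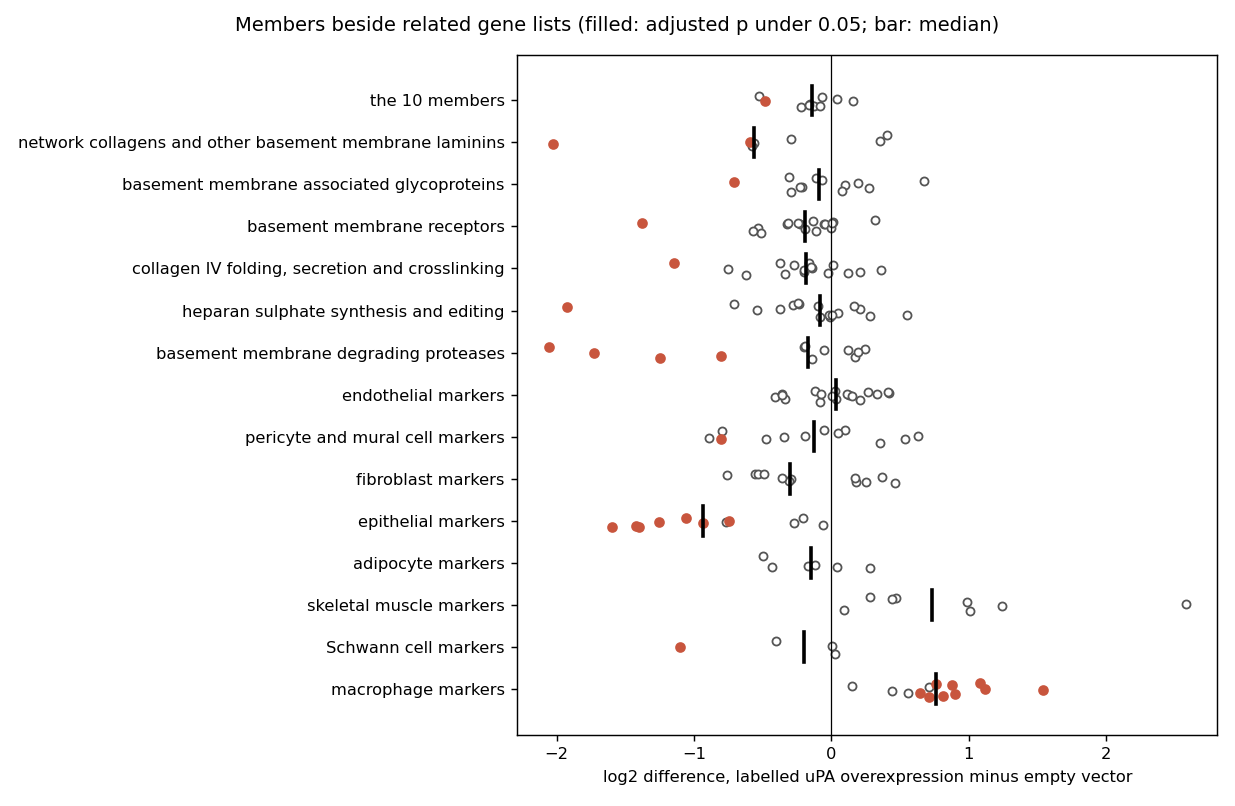
Each point is a measured gene, placed by its log2 difference (labelled uPA overexpression minus empty vector), for the 10 members and 14 related lists, filled where adjusted p was under 0.05, with a bar at the list median. The members and the endothelial markers lie close to 0, the epithelial markers to the left and the macrophage markers to the right.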

How the data were processed

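RNA of 6 tumours, 3 per group by title, was hybridised to the Illumina MouseWG-6 BeadChip, version 2.0. Per the file headers, the authors deposited an unnormalised intensity and a detection p-value per probe and array. The detection value rises to 1 for bright probes, so it was turned round. The deposited processed values, on a log2 scale, were made with GeneSpring GX 11.0 per the series design text, and behave as quantile-normalised values centred per probe on an unknown level (column medians 0.00197 to 0.0042). Raw rows carry bead addresses and processed rows probe IDs, so both were joined by value: of 45281 rows 45230 matched, including all 17 member probes (nearest row at least 9.42 times nearer than the next). In a simulated join 0 rows were wrong. It used the normalised raw values themselves, with no noise between arrays, so it cannot measure errors of the real join. Symbols came from the GEO platform annotation, with 34885 probes of 1 symbol, 18 of several and 10378 of none.

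Background was corrected by normexp with negative controls inferred from detection p, offset 16, followed by log2 values normalised between arrays by quantiles (limma 3.58.1 in R 4.3.3, and Python 3.11.15). A probe was tested where its detection p was below 0.05 in 3 or more of the arrays (20434, of which 3073 have no name). All probes were fitted with lmFit and eBayes without covariates. A gene took its brightest probe, with Benjamini-Hochberg adjustment over 10842 genes. On 20 simulated data sets, with normal noise independent between genes, 5.21% of calls were false, a share that need not hold for the real arrays. The number of arrays limits the precision.

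Members, lists and tests were chosen with earlier results of these data known. Names from each list were those with the smallest p, up to 4 per pathway and 3 per cell type, beside Plau, Pecam1, Cdh5, Rgs5 and Epcam, and the text gives a part of them. Musk, Erbb3 and other undetected genes, Adipoq and the second probes were named after their values were seen. The alternatives are those given in the closing section. The files name no slide, so no slide block was run.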

Additional observations from a re-analysis of the deposited data

How the results depend on the processing

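The median of the 10 members stayed between -0.16 and -0.12 on the log2 scale under all alternatives run. Of 179 member values under an alternative, 162 kept direction and call, 8 lost the call of Agrn, and 9, of Nid2 and Lamb2, turned sign. The Agrn call held without background correction, with offset 50, with 75th percentile scaling, unfiltered, with detection required on all 6 arrays, the deposited values, array weights, a trended robust prior, the mean of all probes and, chosen after seeing the data, a refit on 1 probe per gene. The number of members called lower was 0 at the study's thresholds, 0 without any single array, 0 without empty vector 2 and uPA-labelled array 1 together (chosen after seeing the data; Agrn -0.41, adjusted p = 0.128) and 0 with a replicate block (adjusted p = 0.136). Nid2 turned to -0.18 with array weights, to -0.19, -0.11 and -0.03 without empty vector 2 and uPA-labelled arrays 1 and 2, and to -0.34 without the 2 arrays together, with a range of -0.19 to 0.27 over single arrays left out. Lamb2 turned to 0.076 with array weights, to 0.10 and 0.02 without empty vector 2 and uPA-labelled array 1, and to 0.20 without both (range -0.19 to 0.10 over single arrays). The cause was not tested. Cdh5 turned to 0.080 without empty vector 2 and to 0.079 without uPA-labelled array 3, in a range of -0.25 to 0.08.

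Over all genes, 336 were called lower and 250 higher. Leaving out single arrays gave 16 to 309 lower and 8 to 295 higher, and 0 to 798 probes beside 730 with all arrays. Array weights gave 568 and 502 genes and 1508 probes, the trended prior 382 higher genes and 1127 probes, no filter 452 probes, and leaving out the 2 arrays together 120 and 103 genes and 266 probes. The replicate block left 47 and 30 genes and 2 probes. Arrays of the same number did not deviate together (correlations of -0.19, -0.26 and 0.07), and those of different numbers gave -0.12 to 0.32. With 3 arrays per group these correlations cannot settle whether the numbers pair the tumours, which the labels do not state. With the block the calls of Plau, Col4a5, Fbln2, Mmp3, Mmp9, Pdgfrb, Cldn3, Itgam and C1qb were lost too (adjusted p from 0.0522 to 0.0924), and 3 epithelial and 3 macrophage markers were called. Without the 2 arrays together those counts were 4 and 4, and the calls of Col4a5, Fbln2, Prss12, Plau, Mmp9 and Pdgfrb were lost (adjusted p from 0.0520 to 0.142). Counts of list genes over the alternatives were added after seeing the data. Signal over background limits Lama4, which has no value where detection on all 6 arrays was required.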
